A study of Mus musculus with 4 samples.

Results

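The 8 genes described here, Lin28b, Hmga2, Igf2bp1, Igf2bp2, Igf2bp3, Arid3a, Sox17 and Bcl11a, are members and associates of the LIN28B programme of fetal blood stem cells. They were chosen by name from the 32285 genes of the matrices, with no threshold on a measured value. The samples were LSK cells (negative for lineage antigens, positive for Sca1 and c-Kit) from livers of mouse fetuses at E17.5, shortly before birth. The control library (WT) came from Bclaf1f/f embryos, which carry floxed Bclaf1 alleles and no Cre. The knockout library (KO) came from Vav-Cre:Bclaf1f/f embryos, in which the Vav promoter drives Cre in blood cells. Both genotypes thus carried the floxed alleles. BCLAF1 is found in the nucleus, with reported roles in gene transcription and RNA splicing, and the study asked about its part in haematopoietic stem cells (HSCs) under stress.

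Each genotype was 1 pool of 10 embryos that was sorted to 20000 cells, with 10000 loaded, and read by CITE-seq, which counts messenger RNA and antibody tags in the same cells. The RNA and tag parts of both pools gave 4 samples in 4 groups of 1. No test across samples was possible, genotype and library cannot be told apart, and neither can Cre and loss of Bclaf1. The WT library held 5345 cells with a median of 22734 unique molecular identifiers (UMIs), and the KO library 2669 cells with a median of 34136. Levels are UMIs per 1000000 gene UMIs (CPM), and ratios are log2 of KO over WT. The ranges in brackets are 95% intervals of counting error, which leave out the spread between cells, embryos and libraries. UMIs were read at the 3′ end of transcripts, so levels are compared between cells for 1 gene and not between genes. Bclaf1, the targeted gene, stood at 217.8 CPM in WT against 75.8 CPM in KO, a log2 ratio of -1.52. Which exons were floxed is not stated in the labels, so these 3′ tags do not check the deletion itself. Markers of the sorted cells were present, with Kit at 200.4 CPM in WT and 219.4 CPM in KO, and Ly6a (the gene of Sca1) at 12.8 and 9.65 CPM.

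LIN28B is an RNA-binding protein of embryonic and fetal cells that blocks the maturation of let-7 microRNAs. Hmga2, Igf2bp1, Igf2bp2, Igf2bp3 and Arid3a are known targets of let-7, which lowers them where it is mature. HMGA2 is a chromatin protein that promotes self-renewal of fetal HSCs, the IGF2BP proteins bind messenger RNAs and affect their stability and translation, and ARID3A is a DNA-binding factor of B-lineage and erythroid cells. SOX17 is a transcription factor needed by fetal HSCs, and BCL11A is a repressor of embryonic and fetal globin genes that lymphoid development and HSCs also need.

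The let-7 family is shown because its seed, bases 2 to 8 counted from the 5′ end and set in capitals, is what joins 5 of the members as known targets. RefSeq (GRCm38.p6) listed 11 mature let-7 and miR-98 sequences, of 19 to 24 bases, and 10 of them share the seed GAGGUAG. The microRNAs themselves were not measured in these libraries.
mmu-let-7a-5p: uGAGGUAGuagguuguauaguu
mmu-let-7b-5p: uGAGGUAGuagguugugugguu
mmu-let-7g-5p: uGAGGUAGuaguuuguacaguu
mmu-let-7i-5p: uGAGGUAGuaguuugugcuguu
mmu-miR-98-5p: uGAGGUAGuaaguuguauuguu
mmu-let-7j: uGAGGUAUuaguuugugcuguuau
Outside the seed, let-7b-5p differs from let-7a-5p by A17G and A19G, and miR-98-5p by G11A and A19U, with the let-7a-5p base first and positions counted from the 5′ end. The entry let-7j, shown last, is the 1 name of the 11 with another seed, GAGGUAU.

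Promoters are shown for 3 members whose levels ran differently over the same cells: Lin28b, which was nearly level over the clusters, Igf2bp2, which was highest in HSC-like cells, and Igf2bp3, which was low in them. Each run is the 250 bases before the start given by RefSeq on GRCm38.p6, 5′ to 3′ on the minus strand. Capitals mark the palindromic E-box CACGTG, which MYC family proteins bind and which reads alike on both strands.
Lin28b, chr10:45470202-45470451: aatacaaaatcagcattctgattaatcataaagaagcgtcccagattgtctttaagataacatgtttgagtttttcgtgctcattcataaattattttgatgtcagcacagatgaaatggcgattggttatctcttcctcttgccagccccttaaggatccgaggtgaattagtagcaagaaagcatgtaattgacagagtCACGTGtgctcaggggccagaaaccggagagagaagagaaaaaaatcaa
Igf2bp2, chr16:22163300-22163549: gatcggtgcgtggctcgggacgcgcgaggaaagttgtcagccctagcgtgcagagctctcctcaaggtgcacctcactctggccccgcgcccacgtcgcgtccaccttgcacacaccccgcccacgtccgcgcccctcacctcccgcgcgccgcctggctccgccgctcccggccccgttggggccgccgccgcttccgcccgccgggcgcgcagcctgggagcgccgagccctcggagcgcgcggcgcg
Igf2bp3, chr6:49214955-49215204: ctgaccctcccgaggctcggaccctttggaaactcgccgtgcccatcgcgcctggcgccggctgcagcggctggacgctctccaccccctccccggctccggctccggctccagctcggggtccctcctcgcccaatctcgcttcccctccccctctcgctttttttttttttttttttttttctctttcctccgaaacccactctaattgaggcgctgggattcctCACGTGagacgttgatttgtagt
The E-box began 49 bases before the start in Lin28b and 23 bases before it in Igf2bp3, and the letters do not occur in the windows of Igf2bp2, Hmga2 and Bcl11a. Of 32851 promoter windows of this length, 6.02% held them. The Igf2bp2 window was 77.2% G and C and held 40 CG pairs, that of Igf2bp3 60.4% with 21, and that of Lin28b 39.2% with 6, against a median of 52.4% G and C over all windows. The windows of Lin28b and Igf2bp3 lie inside the span that RefSeq gives the gene, which begins further upstream. That span begins at base 45486314 of chr10 for Lin28b and 49215469 of chr6 for Igf2bp3. The E-box distances are counted from the end of each window and not from there. Promoter entries were matched for 5 members and not for Igf2bp1, Arid3a and Sox17.

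On the same assembly the genes span chr10:45376617-45486314 (Lin28b), chr10:120361268-120476469 (Hmga2), chr11:95957163-96005944 (Igf2bp1), chr16:22059009-22163299 (Igf2bp2), chr6:49085218-49215469 (Igf2bp3), chr10:79927043-79955018 (Arid3a), chr1:4490928-4497426 (Sox17) and chr11:24076564-24173558 (Bcl11a). Among genes of the matrices, Igf2bp3 overlaps the protein-coding gene Malsu1, Hmga2 overlaps the long noncoding RNAs 1700006J14Rik and 9230105E05Rik, and Bcl11a overlaps 4930538E20Rik. The use of strand in counting is not given in the sources used here, so reads in those overlaps are uncertain.

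Over all LSK cells 7 of the 8 members were measured, at a mean of at least 5 CPM over both libraries, and each of these lay within 25% of its WT level in KO. Lin28b, the regulator, was counted 2550 times in WT and 2159 times in KO, or 18.0 CPM (17.3 to 18.7) in WT against 20.9 CPM (19.98 to 21.8) in KO (log2 ratio 0.21, 0.13 to 0.29). Hmga2 had 232.4 CPM (229.9 to 235.0) in WT against 220.7 CPM (217.8 to 223.6) in KO (log2 ratio -0.07, -0.10 to -0.05). The intervals of WT and KO do not overlap for either gene.

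Among the RNA-binding proteins of the IGF2BP family, Igf2bp1 had 10.9 CPM in WT against 10.2 CPM in KO (log2 ratio -0.09, -0.21 to 0.02). Igf2bp2 had 47.7 CPM in WT against 47.9 CPM in KO (log2 ratio 0.01, -0.05 to 0.06). Igf2bp3 had 47.2 CPM in WT against 52.3 CPM in KO (log2 ratio 0.15, 0.09 to 0.20). For Igf2bp1 and Igf2bp2 the interval of the ratio includes 0, so no difference beyond counting error was seen over all cells. That of Igf2bp3 lies above 0. Of the transcription factors, Arid3a had 54.8 CPM in WT against 54.0 CPM in KO (log2 ratio -0.02, -0.07 to 0.03). Bcl11a had 166.7 CPM in WT against 185.8 CPM in KO (log2 ratio 0.16, 0.13 to 0.18). The interval of Arid3a includes 0 and that of Bcl11a does not.

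None of the 7 measured members was at least 25% higher in KO, against 7.38% of the 9230 genes measured, and none was at least 20% lower, against 2.54%. The members' median log2 ratio was 0.0064 and that of all measured genes 0.067, and 4 of the 7 members and 65.0% of the genes were above 0. When KO cells were weighted to the WT shares of the clusters described next, 7 of 7 members were higher in KO, against 69.7% of genes under the same weights. The members' log2 ratios then lay between 0.098 and 0.26 with a median of 0.20, and the median of all genes was 0.085. Erythroid-like cells, in which 5 members were low, made up 4.68% of WT and 11.4% of KO cells. Granulocyte-monocyte-like cells made up 1.91% and 5.73%, with 125.9 and 107.4 CPM of Hmga2 and 70.5 and 78.2 CPM of Bcl11a in WT and KO. Megakaryocyte-like cells made up 4.66% and 7.04%, with 72.9 and 74.7 CPM of Hmga2. The part of any single class in the members' ratios over all cells was not tested.

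Sox17 was barely seen. It had 6 UMIs in as many WT cells and 8 in as many KO cells, or 0.0424 CPM (0.0156 to 0.0923) and 0.0773 CPM (0.0334 to 0.152). HSC-like cells held 1 of the WT and 4 of the KO UMIs. Droplets of 100 to 300 UMIs, which hold free RNA and no whole cell, had 0.626 CPM (0.203 to 1.46) of Sox17 in WT and 0.177 CPM (0.0045 to 0.988, from 1 UMI) in KO. Droplets of 10 to 100 UMIs held 0 in both libraries, with intervals that reach 2.50 CPM in WT and 7.89 CPM in KO. Over all cells the Sox17 level was below that of the larger droplets in each library. KO HSC-like cells alone had 0.602 CPM (0.164 to 1.54), above the KO droplets but with an overlapping interval. These larger droplets held a median of 130 UMIs in WT and 198 in KO, against 14509 and 20234 in HSC-like cells. A like CPM is thus not a like count for each barcode. Whether the Sox17 UMIs of cells came from free RNA was not tested. With so few UMIs, Sox17 enters no further comparison.

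To see in which cells the members were used, the cells of both libraries were clustered by their RNA with the members left out, and 16 clusters held at least 50 cells. Clusters were named from fixed markers: cluster 0 was HSC-like (783 WT and 313 KO cells, with Procr and Mecom among its leading genes), 9 and 14 erythroid-like, 6 megakaryocyte-like, 11 monocyte, macrophage or dendritic-like, 12 granulocyte-monocyte-like and 15 mast cell or basophil-like. The other clusters kept their numbers. Cluster 5 was led by Tcf7, Ebf1, Ccr9 and Il7r, genes of lymphoid precursors, but held too few of the fixed markers for a name. The level in the highest WT cluster was 31.0-fold that in the lowest for Igf2bp2, 23.1-fold for Hmga2, 9.14-fold for Arid3a, 7.13-fold for Bcl11a, 4.99-fold for Igf2bp1, 2.99-fold for Igf2bp3 and 2.06-fold for Lin28b.

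**Figure D1:**
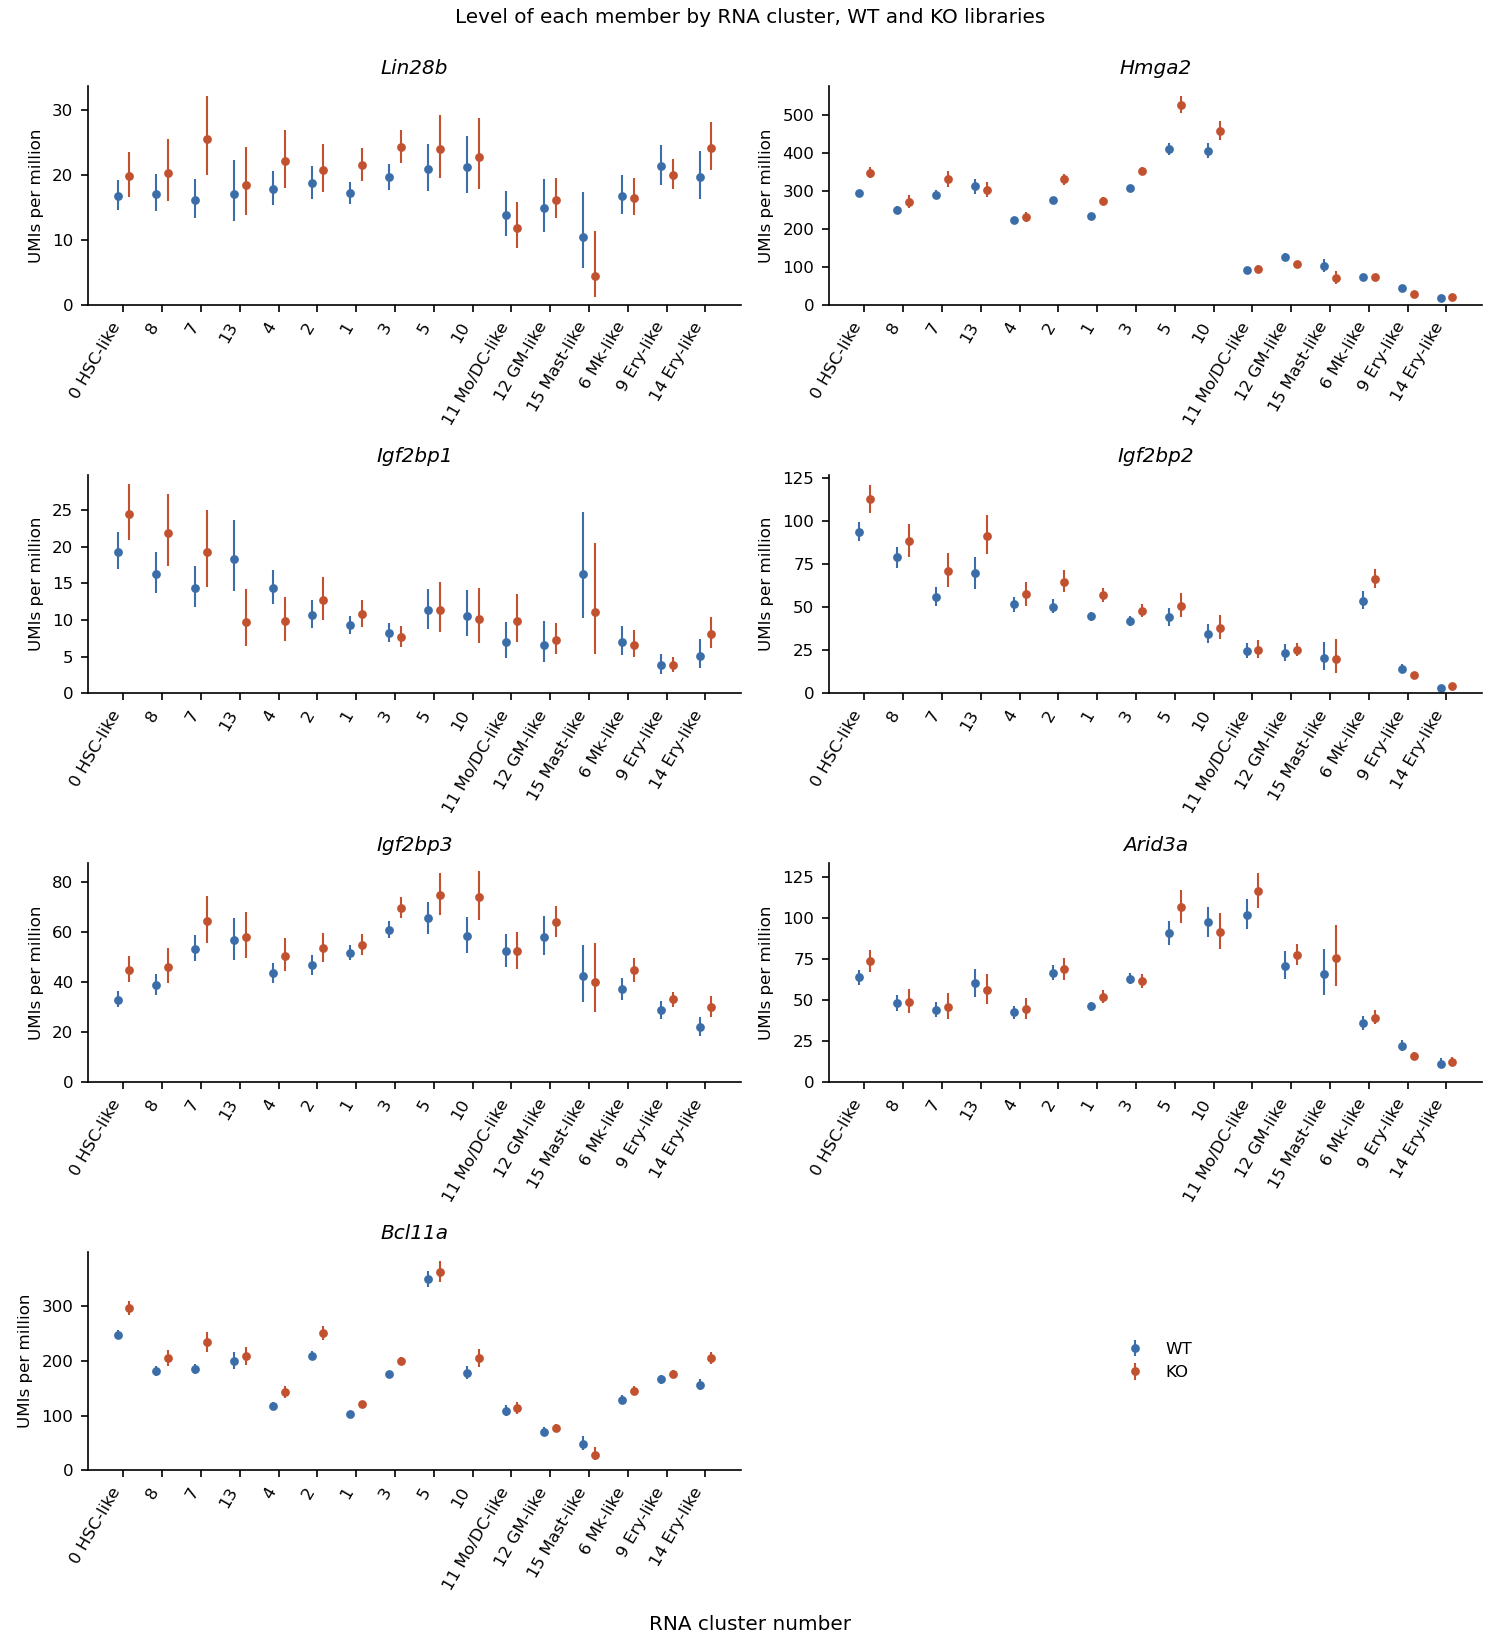
Level of each measured member (y axis, UMIs per 1000000 gene UMIs, from 0) in the RNA clusters of at least 50 cells (x axis), with a point for the WT and the KO library and bars for the 95% interval of counting error. Hmga2, Igf2bp2 and Arid3a were lowest in cluster 14 in both libraries, while Lin28b stayed between 10.4 and 21.4 CPM over the WT clusters.

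Lin28b spanned the narrowest range of the measured members in WT. Its highest WT levels were 21.4 CPM (18.5 to 24.6) in the erythroid-like cluster 9 and 21.3 CPM in cluster 10, and its lowest 10.4 CPM (5.68 to 17.4) in mast cell or basophil-like cells. HSC-like cells had 16.8 CPM (14.5 to 19.2), and the intervals of each neighbouring pair in the WT order overlap. In KO, among clusters with at least 50 KO cells, Lin28b was highest at 25.6 CPM (20.04 to 32.2) in cluster 7, led by Ramp2, Ung and Ccnd1, and lowest at 11.9 CPM (8.72 to 15.9) in monocyte, macrophage or dendritic-like cells.

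Hmga2, by contrast, divided the clusters. It was highest in cluster 5, with 410.7 CPM (395.1 to 426.7) in WT and 526.2 CPM (504.3 to 548.9) in KO. Cluster 10, led by Ccl9, Irf8 and Nfil3, came next with 405.9 and 458.3 CPM, and its interval overlaps that of cluster 5 in WT but not in KO. HSC-like cells had 293.0 and 347.6 CPM. Megakaryocyte-like cells had 72.9 and 74.7 CPM, and erythroid-like cluster 14 had 17.8 CPM (14.5 to 21.6) and 22.0 CPM (18.7 to 25.7). The intervals of the erythroid-like clusters 9 and 14 lie below those of the next cluster up in both libraries.

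The members of the IGF2BP family differed in where they were high. Igf2bp2 was highest in HSC-like cells, at 93.8 CPM (88.4 to 99.4) in WT and 112.5 CPM (104.6 to 120.9) in KO, and lowest in cluster 14, at 3.02 and 4.20 CPM. Igf2bp1 was also highest in HSC-like cells, at 19.3 CPM (16.9 to 22.0) and 24.5 CPM (20.9 to 28.6), though the interval of the next cluster overlaps in each library. Igf2bp3 was low in HSC-like cells, at 33.0 CPM (29.8 to 36.4) and 45.0 CPM (40.01 to 50.4), and high in cluster 5, at 65.4 CPM (59.3 to 72.0) and 74.9 CPM (66.8 to 83.7). In both libraries HSC-like cells thus stood at the top of the order for Igf2bp1 and Igf2bp2 and below the median cluster for Igf2bp3. Megakaryocyte-like cells, in which Hmga2 was low, kept Igf2bp2 at 53.7 and 66.4 CPM in WT and KO.

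Arid3a was highest in monocyte, macrophage or dendritic-like cells, at 102.3 CPM (93.5 to 111.7) in WT and 116.6 CPM (106.0 to 127.8) in KO, and the interval of the next cluster overlaps in each library. Its lowest levels were 11.2 and 12.3 CPM, in cluster 14. Bcl11a was highest in WT in cluster 5, at 349.2 CPM (334.8 to 364.0), followed by HSC-like cells at 247.6 CPM (238.8 to 256.6), and these intervals do not overlap. Its lowest WT level was 49.0 CPM, in mast cell or basophil-like cells, and the erythroid-like clusters 9 and 14 kept 166.2 and 156.4 CPM in WT.

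Against the other WT cells, 3 of the 7 measured members were at least 1.5-fold higher in HSC-like cells, against 23.8% of 9545 genes: Igf2bp2 at 2.16-fold, Igf2bp1 at 1.92-fold and Bcl11a at 1.56-fold. Hmga2 was 1.29-fold higher there, and Igf2bp3 was lower, with a log2 ratio of HSC-like to other WT cells of -0.56 (-0.71 to -0.41). In erythroid-like cells 5 of 7 members were at least 1.5-fold lower than in other WT cells, against 28.8% of 8851 genes. The log2 ratios of erythroid-like to other WT cells were -2.90 (-3.03 to -2.77) for Hmga2, -2.40 for Igf2bp2, -1.72 for Arid3a, -1.41 for Igf2bp1 and -0.93 for Igf2bp3. Bcl11a had -0.04 (-0.10 to 0.02) and Lin28b 0.23 (0.05 to 0.40) in the same comparison, so Lin28b was not lower in the cells where the 5 known let-7 targets among the members were. As a share of UMIs, free RNA was above the level of cluster 14. Droplets of 100 to 300 UMIs held 227.0 CPM of Hmga2 in WT and 162.3 CPM in KO, and 46.5 and 38.3 CPM of Igf2bp2. Their median was 130 UMIs in WT and 198 in KO, against 58907 and 77530.5 in cells of cluster 14, so these CPM are not counts added to each cell.

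Over 23 pairs of cluster and library with at least 100 cells, the Pearson correlation of log2 levels was 0.85 between Igf2bp1 and Igf2bp2, 0.77 between Hmga2 and Igf2bp1, 0.73 between Igf2bp3 and Arid3a and 0.13 between Igf2bp2 and Igf2bp3. Lin28b had 0.56 with Bcl11a, 0.35 with Hmga2 and 0.03 with Igf2bp2. Among 5476 genes, those most like Hmga2 were Sox4 (0.98), Cd27 and Gpr171 (both 0.97), those most like Igf2bp2 were Meis1 (0.97), Slc50a1 (0.94) and Fnbp1l (0.93), and those most like Igf2bp1 were Tspan3, Eid1 and Csad (each 0.91). Igf2bp3 was most like Gdi2, Cd69 and Ankrd44 (each 0.85), Arid3a most like Nfam1 (0.96), Myo1g and Nrros, and Bcl11a most like Tsc22d1 (0.92), Clcn3 and Sys1. For Lin28b the values were lower, with Riok2 at 0.74 and Rcc2 and Taf1d at 0.73. The genes named depend on the measure. By Spearman's rank correlation the first 3 genes were the same for Lin28b, 2 of 3 were shared for Hmga2 and 1 of 3 for Igf2bp1, Igf2bp3, Arid3a and Bcl11a. For Igf2bp2 none was shared, and Mga (0.96), Hook1 and Rabep1 (both 0.92) came first. Ly6e (0.87) came first for Igf2bp3 and Gm2a (0.96) for Arid3a. These correlations describe clusters that share 2 libraries and differ in depth, and they carry no test.

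The cells were also ordered, in place of clusters, by their share of UMIs in marker lists and divided into 5 bins of equal size. From the lowest to the highest WT bin by the 11 HSC markers, Igf2bp2 went from 22.6 to 85.3 CPM and Igf2bp1 from 6.44 to 19.2 CPM. Igf2bp3 went from 44.4 to 39.0 CPM and Lin28b from 18.6 to 16.9 CPM. By the 9 lymphoid markers, WT Hmga2 went from 93.5 to 384.1 CPM, Bcl11a from 124.8 to 282.3 CPM and Arid3a from 32.7 to 79.6 CPM. By the 10 erythroid markers, the highest bin had 148.1 CPM of Hmga2 in WT and 83.6 CPM in KO, against 271.0 and 272.1 CPM in the lowest bin. Bcl11a went the other way over the erythroid bins of WT, from 131.4 to 198.5 CPM. The bins thus separated Igf2bp1 and Igf2bp2, which followed the HSC markers, from Igf2bp3, which did not.

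**Figure D2:**
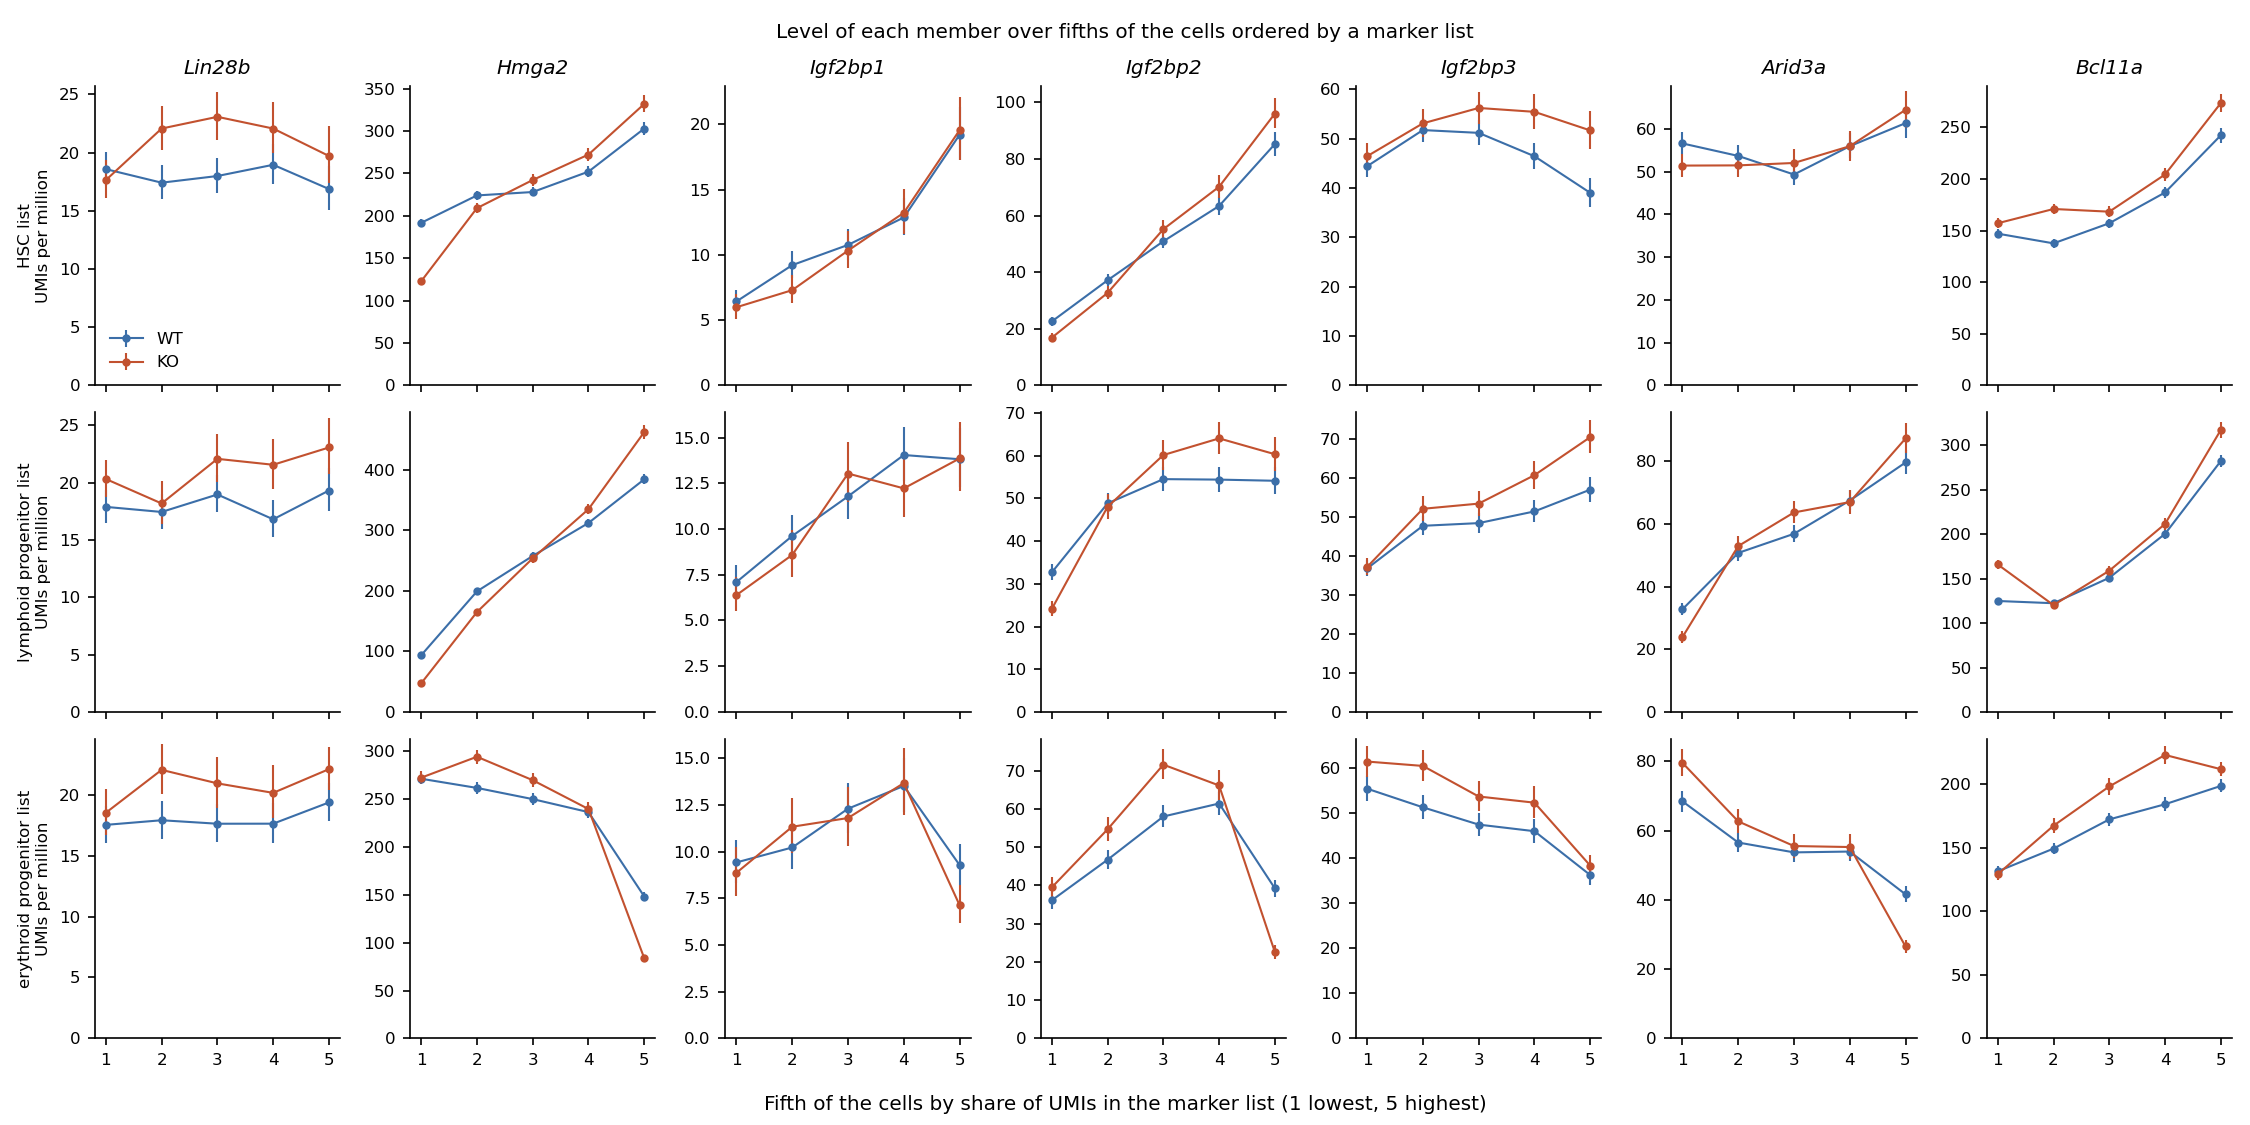
Level of each measured member (y axis, UMIs per 1000000 gene UMIs, from 0) over 5 equal bins of the WT and KO cells ordered by the share of UMIs in the HSC, lymphoid and erythroid marker lists (x axis, 1 lowest to 5 highest), with bars for the 95% interval of counting error. Igf2bp2 was higher in each next bin by HSC markers in both libraries, and Hmga2 in each next bin by lymphoid markers.

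The antibody tags placed the same cells in surface gates. CD150+CD48- cells, the gate of the classical HSC, were divided in each library at its own median of CD201, a further HSC antigen encoded by Procr, into 408 WT and 222 KO cells of high CD201 and 409 and 222 of low CD201. In WT the CD201 high gate had the highest Igf2bp2, at 91.7 CPM (84.8 to 99.01), and CD150-CD48+ cells, a gate of progenitors, the lowest, at 42.1 CPM (40.8 to 43.5). Igf2bp1 had 20.5 CPM (17.3 to 24.1) in the CD201 high gate, 16.6 CPM in CD150-CD48-, 11.1 in the CD201 low gate, 10.3 in CD150-CD48+ and 7.36 in CD150+CD48+. Igf2bp3 had 31.8 CPM (27.8 to 36.3) in the CD201 high gate and 54.2 CPM (52.7 to 55.8) in CD150-CD48+, its highest gate. The gate with the highest Igf2bp3 was thus the one with the lowest Igf2bp2.

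Between the WT CD201 high and CD150-CD48+ gates, 2 of 7 measured members were at least 1.5-fold higher in the former, against 19.9% of 9495 genes, Igf2bp2 at 2.18-fold and Igf2bp1 at 1.99-fold. At least 1.5-fold lower was 1 of 7, Igf2bp3, with a log2 ratio of -0.77 (-0.97 to -0.58), against 5.33% of genes. Hmga2 lay close between these WT gates, at 249.3 and 269.9 CPM, and was lowest in CD150+CD48+, at 130.4 CPM (126.0 to 134.9), the gate in which 27.3% of WT cells were megakaryocyte-like. Lin28b ranged from 14.9 CPM (12.1 to 18.0) in the CD201 high gate to 19.3 CPM (17.7 to 21.1) in CD150+CD48+, and each neighbouring pair of gates in that order overlaps.

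**Figure D3:**
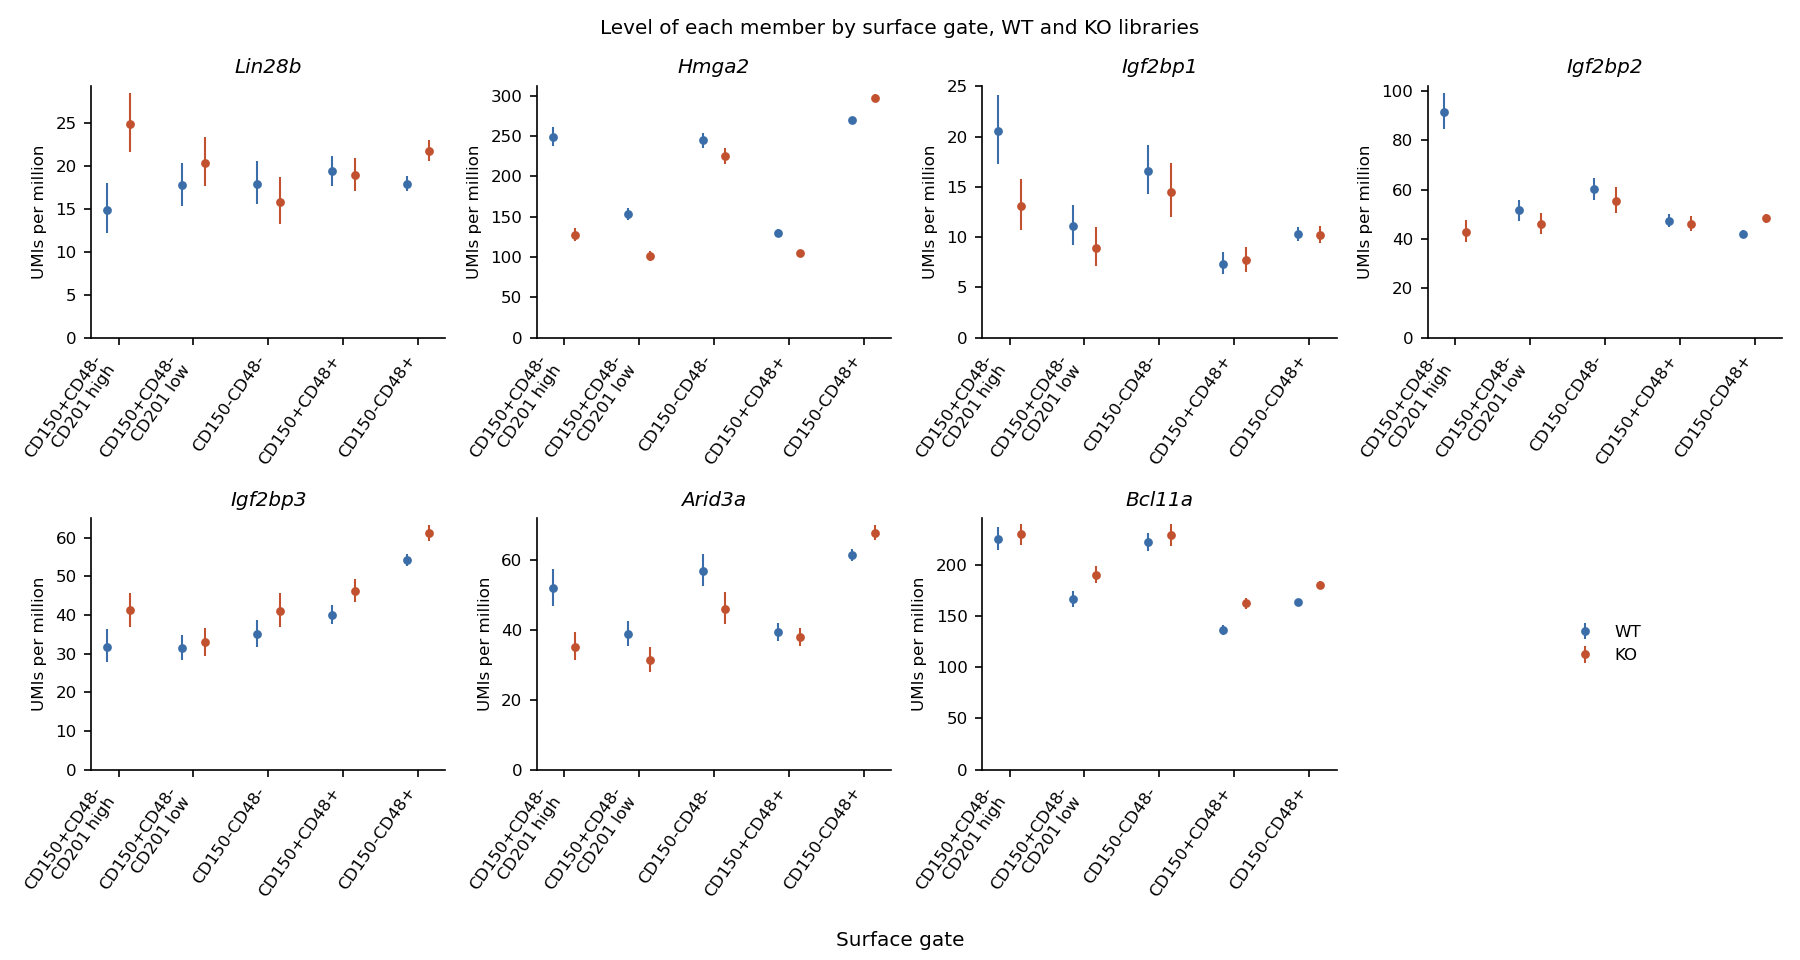
Level of each measured member (y axis, UMIs per 1000000 gene UMIs, from 0) in 5 surface gates (x axis), with a point for the WT and the KO library and bars for the 95% interval of counting error. In the CD150+CD48- CD201 high gate the KO points of Hmga2, Igf2bp1, Igf2bp2 and Arid3a lie below the WT points, and those of Lin28b and Igf2bp3 above.

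Within the CD201 high gate the KO library stood apart from WT for most members. Hmga2 was counted 1762 times in WT and 1062 times in KO, or 249.3 CPM (237.8 to 261.2) in WT against 127.5 CPM (120.0 to 135.4) in KO (log2 ratio -0.97, -1.08 to -0.86). Igf2bp2 had 91.7 CPM in WT against 43.0 CPM in KO (log2 ratio -1.09, -1.28 to -0.90). Igf2bp1 had 20.5 CPM in WT against 13.1 CPM in KO (log2 ratio -0.65, -1.02 to -0.28). These 3 known let-7 targets were lower in KO, and so was Arid3a, with 51.9 CPM in WT against 35.2 CPM in KO (log2 ratio -0.56, -0.79 to -0.34). Lin28b, in the opposite direction, had 14.9 CPM in WT against 24.9 CPM in KO (log2 ratio 0.74, 0.40 to 1.10). Igf2bp3 had 31.8 CPM in WT against 41.2 CPM in KO (log2 ratio 0.37, 0.12 to 0.62). The Lin28b and Igf2bp3 levels were the higher ones in KO, and Bcl11a was near level, with 225.2 and 229.7 CPM. At least 20% lower in KO were 4 of 7 members, against 32.4% of 9587 genes, and at least 25% higher were 2 of 7, against 22.7%, so that many genes of this gate lay as far from WT.

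The cells in that gate were not of the same kinds in the 2 libraries. HSC-like cells made up 80.9% (76.7 to 84.6) of the gate in WT and 49.5% (42.8 to 56.3) in KO, and erythroid-like cells 3.43% (1.89 to 5.69) and 29.7% (23.8 to 36.2). Erythroid-like cells were deep, with a median of 73942.5 UMIs in this KO gate against 19465.5 for HSC-like cells, and they held 12.6% of the gate's UMIs in WT and 60% in KO. The summed level of the 10 erythroid markers, of which 9 were above 1 CPM and none at 0 in either library, was 682.0 CPM in WT and 1549 CPM in KO in this gate. That of the 11 HSC markers, each above 1 CPM, was 1457 and 646.9 CPM. The 6 neutrophil markers, of which Retnlg was at 0 in both libraries, summed to 4.95 and 341.0 CPM. Other lists were lower in KO. The 9 lymphoid markers, 4 of them above 1 CPM in each library and Dntt, Rag1, Rag2 and Cd79a at 0 in WT, summed to 302.6 and 127.0 CPM. The 10 mast cell or basophil markers, 5 of them above 1 CPM in each library and Mcpt8 and Gzmb at 0 in both, summed to 154.6 and 10.7 CPM. The 10 endothelial markers, each above 1 CPM, summed to 129.9 and 56.9 CPM, and the 9 megakaryocyte markers, 6 of them above 1 CPM and Gp6 at 0 in both, to 78.2 and 37.8 CPM. By RNA class, mast cell or basophil-like cells were 1 of the 408 WT and 0 of the 222 KO cells of the gate. Granulocyte-monocyte-like cells were 0 and 3, so the mast cell and neutrophil sums may rest on few cells. The part of the neutrophil, lymphoid, mast cell, endothelial and megakaryocyte lists in the members' values was not tested. Procr, the gene of CD201, stood at 68.0 CPM in this gate in WT against 25.3 CPM in KO, while the CD201 tag over all cells had a median of 10 UMIs in WT and 37 in KO. CD201 made up 7.69% of tags in WT droplets of 100 to 300 UMIs and 13.3% in KO ones.

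In the HSC-like cells of the gate, taken alone, the KO levels of the same members were the higher ones. Hmga2 there had 293.7 CPM (278.7 to 309.3) in WT against 340.2 CPM (316.5 to 365.1) in KO (log2 ratio 0.21, 0.08 to 0.34). Igf2bp2 had 107.1 CPM in WT against 130.7 CPM in KO (log2 ratio 0.29, 0.08 to 0.50). Arid3a had 61.2 CPM in WT against 80.2 CPM in KO (log2 ratio 0.39, 0.12 to 0.66). Igf2bp1 had 23.8 CPM in WT against 31.0 CPM in KO (log2 ratio 0.38, -0.07 to 0.82), with an interval that includes 0. Igf2bp3 was higher in KO in the whole gate and in its HSC-like cells, where the ratio was 0.56 (0.18 to 0.94), and Lin28b had 0.27 (-0.34 to 0.86). The KO erythroid-like cells of the gate had 27.8 CPM of Hmga2 and 3.80 CPM of Igf2bp2.

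None of the 7 members was at least 20% lower in KO in the gate without erythroid-like cells, a choice made after the values were seen, and none with gates set on log2 tag UMIs. With each cell thinned to 8000 UMIs, so that cells weigh alike, 2 were: Hmga2 had a log2 ratio of -0.61 and Igf2bp2 one of -0.36. The 32.4% of genes lower in KO in this gate holds for the main setting. Shares of all genes under these alternatives are not given here, so the counts cannot be read as particular to the members.

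**Figure D4:**
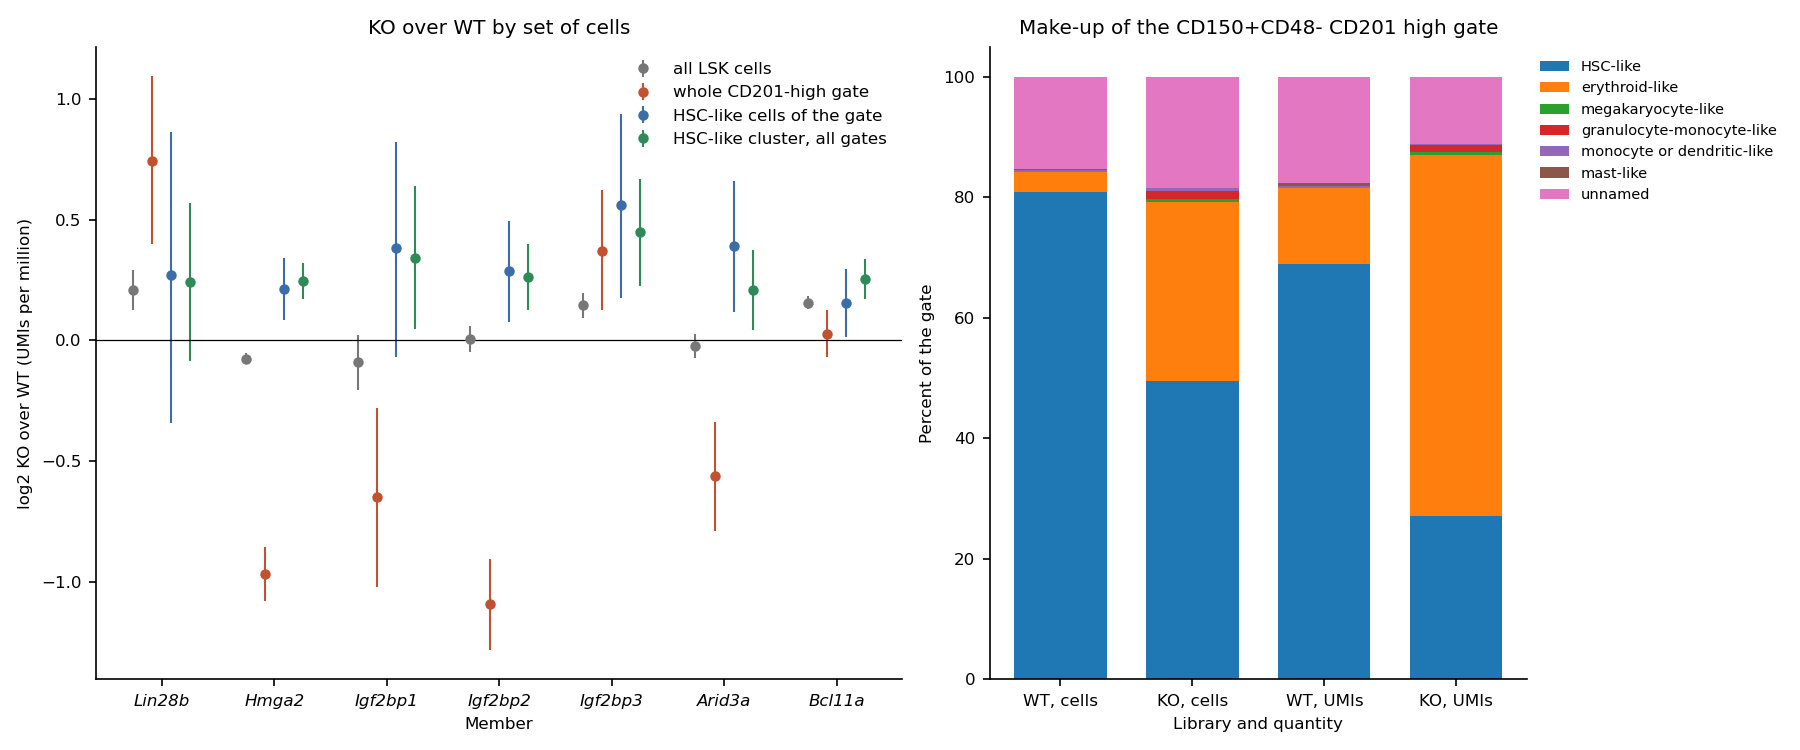
Left, log2 ratio of KO over WT (y axis) of each measured member (x axis) over all LSK cells, the whole CD150+CD48- CD201 high gate, the HSC-like cells of that gate and the HSC-like cluster of all gates, with bars for the 95% interval of counting error. Right, make-up of that gate by RNA class (y axis, percent) in cells and in gene UMIs of the WT and KO libraries, where erythroid-like cells were 3.43% of WT and 29.7% of KO cells.

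Hmga2 differed less between the libraries in the other gates. In the CD201 low gate Hmga2 had 153.4 CPM in WT against 100.7 CPM in KO (log2 ratio -0.61, -0.72 to -0.49), with erythroid-like cells at 17.4% and 33.8% of the gate and a ratio of 0.24 (0.04 to 0.44) in its HSC-like cells alone. In CD150+CD48+ it had 130.4 CPM in WT against 104.7 CPM in KO (log2 ratio -0.32, -0.40 to -0.24), with erythroid-like cells at 13.4% and 23.7%. In CD150-CD48- the ratio was -0.12 (-0.21 to -0.03), with erythroid-like cells at 4.98% and 13.6%. In CD150-CD48+, the gate with most cells, Hmga2 had 269.9 CPM in WT against 297.2 CPM in KO (log2 ratio 0.14, 0.11 to 0.17), with erythroid-like cells at 0.917% and 1.33%. The KO library was lower for Hmga2 in the 4 gates with more erythroid-like cells and higher in the one with fewest. Shares of other classes differed too. Megakaryocyte-like cells were 27.3% of WT and 35.2% of KO cells in CD150+CD48+, and 5.38% and 11.7% in the CD201 low gate. In the other gates they were at most 0.45%. The part of any class in the Hmga2 values was not tested, and gates of 1 library are not replicates.

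In the HSC-like cluster, over all gates, each of the 7 measured members was higher in KO. The log2 ratios were 0.24 (-0.08 to 0.57) for Lin28b, 0.25 (0.17 to 0.32) for Hmga2, 0.34 (0.05 to 0.64) for Igf2bp1, 0.26 (0.13 to 0.40) for Igf2bp2, 0.45 (0.23 to 0.67) for Igf2bp3, 0.21 (0.04 to 0.37) for Arid3a and 0.25 (0.17 to 0.34) for Bcl11a. The interval includes 0 for Lin28b alone. At least 25% higher were 2 of 7, Igf2bp1 and Igf2bp3, against 14.8% of 9814 genes, and none was at least 20% lower, against 3.17%. The members' median log2 ratio was 0.25 and that of all genes 0.084, and 65.2% of genes were above 0. Median depth in these cells was 14509 UMIs in WT and 20234 in KO.

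Across the 16 clusters, Igf2bp3 and Bcl11a were higher in KO in 15, Igf2bp2 in 14, Lin28b, Hmga2 and Arid3a in 12 each and Igf2bp1 in 9. At least 13 of 16 was reached by 3 of 7 members, against 29.9% of 9230 genes. The highest Hmga2 ratio was 0.36 (0.27 to 0.44), in cluster 5, and the lowest -0.64 (-0.84 to -0.44), in erythroid-like cluster 9, with 44.5 and 28.6 CPM in WT and KO. The other erythroid-like cluster, 14, had 0.31 (-0.07 to 0.68), and both together had -0.37 (-0.55 to -0.20) for Hmga2 and -0.28 (-0.52 to -0.04) for Arid3a. Without the 229 WT and 57 KO cells of highest doublet score among all cells, the Hmga2 ratio in erythroid-like cells was 0.26. For Igf2bp1 the lowest ratio was -0.91 (-1.62 to -0.23) in cluster 13, led by Slc16a11 and mitotic genes, from 18.4 and 9.80 CPM. Lin28b was highest relative to WT in cluster 7, at 0.66 (0.22 to 1.09), and lowest in mast cell or basophil-like cluster 15, at -1.22 (-3.28 to 0.45), from 14 UMIs in WT and 4 in KO. Clusters of 1 library share its depth and free RNA, so these counts are not independent replicates.

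Around the members, the machinery that makes and destroys let-7 was read from a list of 19 gene names. Of these, 15 were in the matrices and 12 were measured. Over all LSK cells 4 of the 12 were at least 25% higher in KO, against 7.38% of all genes measured, and none at least 20% lower, against 2.54%. Drosha, the nuclear nuclease that cuts primary microRNAs, had 15.9 and 21.3 CPM (log2 ratio 0.42, 0.34 to 0.51) in WT and KO. Tut7, a terminal uridyltransferase that acts with LIN28 proteins on let-7 precursors, had 87.2 and 113.0 CPM (log2 ratio 0.37, 0.34 to 0.41), and Ago3, an Argonaute, 8.38 and 11.3 CPM (log2 ratio 0.43, 0.31 to 0.55). In HSC-like cells 3 of 12 were at least 25% higher, against 14.8% of all genes, and none at least 20% lower, against 3.17%. Tut7 had 139.8 and 185.4 CPM (log2 ratio 0.41, 0.30 to 0.51) there and Ago3 12.2 and 18.9 CPM (log2 ratio 0.63, 0.28 to 0.98). Tut4, another terminal uridyltransferase, had 151.1 and 176.0 CPM (log2 ratio 0.22, 0.11 to 0.33) in the same cells. The list's median log2 ratio was 0.14 over all cells and 0.24 in HSC-like cells, where the medians of all genes were 0.067 and 0.084.

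Of 22 other known let-7 targets 18 were measured, and over all LSK cells 3 were at least 25% higher in KO, against 7.38% of genes, and 1 was at least 20% lower, against 2.54%. The median log2 ratio of the list was 0.086 and that of all genes 0.067. Cdk6, a kinase of the G1 phase, had 119.1 and 166.0 CPM (log2 ratio 0.48, 0.45 to 0.51) in WT and KO. Mycn, a MYC family gene, was the lower one, with 68.7 and 48.9 CPM (log2 ratio -0.49, -0.54 to -0.44). In HSC-like cells 6 of 18 were at least 25% higher, against 14.8% of genes, and none at least 20% lower, against 3.17%. The list's median there was 0.16 and that of all genes 0.084. Among them were Tgfbr1, a receptor of TGF-beta, with 22.5 and 33.7 CPM (log2 ratio 0.58, 0.32 to 0.84), Myc with 25.7 and 38.0 CPM (log2 ratio 0.57, 0.32 to 0.81) and Cdk6 with 50.8 and 71.0 CPM (log2 ratio 0.48, 0.31 to 0.66). Over all cells the known targets thus lay on both sides of WT.

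Of 10 transcripts known to be bound by IGF2BP proteins, 8 were measured over all cells and 1 was at least 25% higher in KO, against 7.38% of genes: Mki67, a proliferation gene, with 190.9 and 249.6 CPM (log2 ratio 0.39, 0.36 to 0.41). In HSC-like cells 4 of 9 measured were at least 25% higher, against 14.8% of genes, and none at least 20% lower, against 3.17%. They were Myc, which is also among the let-7 targets, Mki67 with 7.27 and 12.3 CPM (log2 ratio 0.76, 0.31 to 1.21), Btrc, a ubiquitin ligase subunit, with 17.0 and 25.4 CPM (log2 ratio 0.58, 0.28 to 0.88), and H19, an imprinted RNA, with 98.4 and 123.2 CPM (log2 ratio 0.32, 0.19 to 0.45). Over all cells H19 was the lower one in KO, with 18.4 and 16.5 CPM (log2 ratio -0.16, -0.25 to -0.07). The list's median log2 ratio was 0.095 over all cells and 0.29 in HSC-like cells, against 0.067 and 0.084 for all genes.

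Of 10 genes listed as SOXF genes and partner factors of SOX17, 8 were measured and 1 was at least 25% higher, against 7.38% of genes: Gata2, a stem cell transcription factor, with 35.1 and 47.0 CPM (log2 ratio 0.42, 0.37 to 0.48). In HSC-like cells it was 1 of 9, against 14.8% of genes: Notch1, a receptor, with 33.8 and 43.9 CPM (log2 ratio 0.38, 0.16 to 0.60). The list's median log2 ratio was -0.043 over all cells and 0.048 in HSC-like cells. Of 19 partners and embryonic globins listed for BCL11A, 15 were measured and 2 were at least 25% higher, against the same 7.38%: Klf1, an erythroid transcription factor, with 20.3 and 36.1 CPM (log2 ratio 0.83, 0.76 to 0.90), and Mbd2, a methyl-CpG binding subunit of the NuRD repressor complex, with 56.3 and 70.9 CPM (log2 ratio 0.33, 0.29 to 0.38). In HSC-like cells none of 14 was, against 14.8% of genes, with Chd4, the ATPase of that complex, at 311.8 and 384.3 CPM (log2 ratio 0.30, 0.23 to 0.37). The list's median was 0.11 over all cells and 0.091 in HSC-like cells. With 8 to 15 genes measured in each, 1 or 2 called genes of the lists for SOX17 and BCL11A lie near the share of all genes. Klf1 is also 1 of the erythroid markers, and the share of erythroid-like cells differed between the libraries.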

How the data were processed

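The deposited files hold raw UMI counts for each barcode, of genes and of 6 antibody tags, per the file headers and the whole-number values. Per the submitters' processing notes they were made with Cell Ranger 4.0.6 on build mm10; the notes also name Seurat and DESeq, with no step. The 8 genes, the pathway and marker lists, the folds and the alternatives were chosen with earlier results of these data known. The named genes were the members, Bclaf1, the 3 genes with the highest Pearson correlation to each member, and at most 3 measured genes of each pathway list, ranked by the interval bound nearest to 0.

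Barcodes were kept with at least 8178 (WT) or 9992 (KO) UMIs, which is 10% of the value at percentile 99 among the 6000 largest, with 500 genes and at most 10% mitochondrial UMIs. Scrublet marked 0 WT and 7 KO cells (0.262%), so it did not work as a caller and doublets largely remained. Cells of the 2 libraries shared 5 barcodes. CD150 and CD48 gates were set in each library by a Gaussian mixture on centred log ratios of the tags. Leiden clustering (scanpy 1.11.5, resolution 1.0, 2000 variable genes, 30 components, 15 neighbours) left out the members, Bclaf1, cell cycle, immediate early, interferon, ribosomal, mitochondrial, histone, haemoglobin and sex-linked genes, and 36 genes over 2-fold apart between libraries. A cluster was named from at least 3 fixed markers of a class among its 50 leading genes. A marker of that class also had to be among the 10 leading genes, with no other class having more there. UMIs were summed over cells, with exact Poisson intervals for levels, exact conditional binomial intervals for ratios and Clopper-Pearson intervals for shares. The ratio intervals were also run on simulated counts drawn from the counting model that they assume. That simulation had no spread between cells, embryos or libraries, so it cannot show how the intervals hold in these data. Genes entered a comparison with at least 5 CPM on average, and a gene was counted when at least 25% higher or 20% lower between libraries, or 1.5-fold between WT groups. Values of single genes are not reported here for every gene of the lists.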

Additional observations from a re-analysis of the deposited data

Results flagged for a closer look

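For 2 members the libraries differed in opposite directions in the HSC-like cluster and in erythroid-like cells, with intervals of counting error on either side of 0, and the difference between the directions was not tested. Hmga2 had a log2 ratio of KO over WT of 0.25 in the HSC-like cluster and -0.37 in the erythroid-like clusters. Arid3a had 0.21 and -0.28. In erythroid-like cells Hmga2 had 0.26 once cells of the highest doublet scores were set aside.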

How the results depend on the processing

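Of 602 KO over WT ratios recomputed under the alternatives 490 stayed within their interval, 101 moved and 11 were counted as changed in sign. The 11 were taken only from ratios past the fold for a count in the main setting. Sign changes of smaller ratios were counted as stayed or moved. Over all cells Hmga2, Igf2bp1 and Arid3a, lower in KO, became higher in KO with KO weighted to the WT cluster shares. Thinned cells gave 249.2 CPM of Hmga2 in WT and 255.7 CPM in KO over all cells. Of 175 ratios between WT groups 151 stayed and 24 moved. Hmga2 in erythroid-like cells changed sign, to 0.26, without the cells of highest doublet score. In the CD150+CD48- CD201 high gate, thinning each cell to 8000 UMIs gave 0.14 for Arid3a, and gates on log2 tag UMIs gave 0.040 for Igf2bp1 and 0.015 for Arid3a. Without erythroid-like cells, chosen after seeing the data, Igf2bp1 had 0.13 and Arid3a 0.25. In HSC-like cells alone, also chosen after seeing the data, Hmga2 had 0.21, Igf2bp1 0.38, Igf2bp2 0.29 and Arid3a 0.39, and Hmga2 had 0.24 in the CD201 low gate. The count of members at least 20% lower in KO in the CD201 high gate, 4, became 2 with thinned cells and 0 with gates on log2 tag UMIs, without erythroid-like cells or with HSC-like cells alone. Shares of all genes in this gate under those alternatives are not given here. The count of members higher in KO over all cells, 4, became 7 with KO weighted to the WT cluster shares. The other 50 of 55 counts of members stayed within 1.5 times. Counts of the pathway lists depended on the fold. At 1.5-fold the genes higher in KO over all cells went from 4 to 0 for the let-7 machinery and from 3 to 0 for other let-7 targets. In HSC-like cells they went from 3 to 1 and from 6 to 0, and from 4 to 1 for transcripts bound by IGF2BP proteins. The share of all genes past 1.5-fold between the libraries is not given here. No paired analysis was possible because each group held 1 sample.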

Other observations

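Members also ran along the CD34 and Sca1 tags. Over 5 equal bins of WT cells from the lowest to the highest CD34 tag, an antigen of progenitors, Hmga2 went from 130.1 to 304.2 CPM, Igf2bp3 from 32.1 to 58.8 CPM and Arid3a from 38.5 to 72.9 CPM. Igf2bp2 went from 53.7 to 40.8 CPM and Lin28b from 17.6 to 19.1 CPM. In KO, Hmga2 went from 75.6 to 337.4 CPM over the same bins. By the Sca1 tag, Igf2bp1 went from 6.31 to 17.7 CPM in WT and from 6.20 to 17.3 CPM in KO, and Bcl11a from 125.8 to 227.3 CPM and from 137.6 to 256.4 CPM.

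The cells were also divided into 3 equal bins by their share of UMIs in genes of the G2 and M phases. In the lowest WT bin Hmga2 had 284.0 CPM (278.3 to 289.9) and in the highest 204.6 CPM (200.9 to 208.2), Igf2bp1 13.5 and 8.79 CPM, and Bcl11a 218.5 and 150.8 CPM. Igf2bp3 had 45.0 and 49.4 CPM and Lin28b 17.6 and 18.6 CPM. In KO Hmga2 had 324.2 and 183.5 CPM in the same bins. The bins are ranges of a score and differ in make-up and depth.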
